A study of Homo sapiens with 48 samples.

Results

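The matrix metalloproteinase (MMP) cluster on chromosome 11 holds 9 genes in 1 row, all read from the same strand: MMP7, MMP20, MMP27, MMP8, MMP10, MMP1, MMP3, MMP12 and MMP13. Its members for the description were the ChIP-seq peaks between 50 kb before MMP7 and 50 kb after MMP13 in the GENCODE annotation of hg38, a window of 535.225 kb at chr11:102470508-103005732. The 16 peak lists of the series placed 207 of their 392665 peaks there. Of these, 18 were RELA or RELB peaks, and after merging peaks that overlapped by at least 1 bp they formed 8 of the 16096 RELA and RELB sites of the series.

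The cells were L3.6pl, an established human pancreatic ductal adenocarcinoma (PDAC) line. RELA, RELB and H3K27ac were each profiled after vehicle (PBS), after 30 min or 6 h of TNFα and after 30 min or 6 h of TWEAK, and FOSL1 was profiled after vehicle. TNFα is a ligand of the canonical NF-κB pathway and TWEAK a ligand of the noncanonical one, and the study set out to compare the binding that follows each. Each of the 16 conditions had 3 replicate samples, 48 in all, which the authors merged into 1 peak list per condition, so no spread between replicates can be given and no difference between conditions was tested. For RELA after 30 min of TNFα the peak names carry only the first replicate's number, and whether all 3 replicates entered that list is not settled. All samples came from 1 cell line, the duration of the vehicle treatment was not stated, and the RELA antibody was captured on protein G beads and the others on protein A beads. The depth per sample is unknown. A vehicle H3K27ac peak lay within 1 kb of the start site of 7 of 7 epithelial genes, 0 of 4 blood cell genes, 1 of 4 fibroblast genes (COL1A1) and 1 of 3 endothelial genes (VWF).

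MMPs are zinc-dependent proteases that cut collagen, proteoglycans and other parts of the extracellular matrix, and several are induced by inflammatory cytokines. The cluster encodes the collagenases MMP1, MMP8 and MMP13, the stromelysins MMP3 and MMP10, the small matrilysin MMP7, the macrophage elastase MMP12, the enamel protease MMP20 and the little studied MMP27. RELA carries the canonical and RELB, with p52, the noncanonical NF-κB response, and both bind the κB motif. FOSL1 (FRA-1) is a subunit of AP-1, which binds the motif TGANTCA, a known element of MMP promoters, and H3K27ac is the histone mark of active promoters and enhancers.

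The sequences below show the 200 bases around the summit of 4 of the 8 sites, in hg38, plus strand, numbered in genome order from MMP7 to MMP13. Sites 6 and 1 are shown because they held a full κB consensus (3 G, a purine, any 2 bases, 2 pyrimidines, 2 C), site 2 because it had the strongest RELB peak, and site 8 because it lay on a FOSL1 peak with an AP-1 motif. Capitals mark the κB match in sites 6 and 1, the closest approach to it, with 1 of 10 letters off, in site 2, and the AP-1 motif and then such a 1-off κB stretch in site 8.
Site 6, MMP1 intron, chr11:102794508-102794707: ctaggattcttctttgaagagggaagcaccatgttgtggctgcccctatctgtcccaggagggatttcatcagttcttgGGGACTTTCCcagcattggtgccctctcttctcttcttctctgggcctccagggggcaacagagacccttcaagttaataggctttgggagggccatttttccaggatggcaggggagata
Site 1, beyond the 3′ end of MMP7, chr11:102476120-102476319: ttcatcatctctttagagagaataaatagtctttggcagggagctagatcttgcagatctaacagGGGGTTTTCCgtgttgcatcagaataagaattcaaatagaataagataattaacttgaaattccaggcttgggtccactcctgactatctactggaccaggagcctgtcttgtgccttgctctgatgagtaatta
Site 2, upstream of MMP7, chr11:102552490-102552689: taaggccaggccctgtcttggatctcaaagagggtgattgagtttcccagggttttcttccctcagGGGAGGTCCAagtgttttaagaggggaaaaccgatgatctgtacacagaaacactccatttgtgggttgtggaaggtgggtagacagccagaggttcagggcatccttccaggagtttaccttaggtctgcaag
Site 8, upstream of MMP13, chr11:102975101-102975300: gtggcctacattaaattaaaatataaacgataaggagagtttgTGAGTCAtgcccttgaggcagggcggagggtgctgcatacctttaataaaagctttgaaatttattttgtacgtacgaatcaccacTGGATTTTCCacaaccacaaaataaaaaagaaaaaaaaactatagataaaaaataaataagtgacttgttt

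No RELA or RELB peak was called in the window after vehicle. After TNFα, RELA had 7 peaks at 30 min and 5 at 6 h, while RELB had 0 at either time. After TWEAK, RELA had 1 peak at each time, and RELB had 1 at 30 min and 3 at 6 h. RELA therefore gave 14 of the 18 peaks and RELB 4, and 6 of the 10 lists had a peak in the window. Among the 2000 strongest peaks of each list, RELA had 1 peak after 30 min and 2 after 6 h of TNFα, the latter of ranks 523 and 1978. RELA had 1 at each time of TWEAK, and RELB had 1 and 2 at 30 min and 6 h of TWEAK. The peak of rank 1978, the RELA peak after 6 h of TWEAK and the RELB peak after 30 min of TWEAK lay in a tandem repeat, site 5. A cut at 2000 was also stricter for RELA at 30 min of TNFα (11266 peaks) than at 6 h (7294). With flanks of 10 kb in place of 50 kb, RELA had 4 and 3 peaks at 30 min and 6 h of TNFα. Over all sites of the series, RELA was called at 18.2% after vehicle, 69.7% and 44.7% at 30 min and 6 h of TNFα and 17% and 22.2% at 30 min and 6 h of TWEAK. RELB was called at 25.2% after vehicle, 17.2% and 21.5% at 30 min and 6 h of TNFα and 14.7% and 24.9% at 30 min and 6 h of TWEAK. Either vehicle list called 29.9% of them. Outside tandem repeats, which held 41.9% of all sites, the share was 88.7% for RELA after 30 min of TNFα, 17.4% for RELB after 6 h of TWEAK and 6.05% for either vehicle list. A tandem repeat was taken as a 1000 bp stretch in which at least 0.4 of the bases matched those at a fixed shift of 1 to 400 bp. In the window 1 of 8 sites was of this kind. The window held 14.9 sites per Mb against 5.21 over the standard chromosomes, and outside tandem repeats 13.1 against 3.03, from 7 and 9357 sites.

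**Figure D1:**
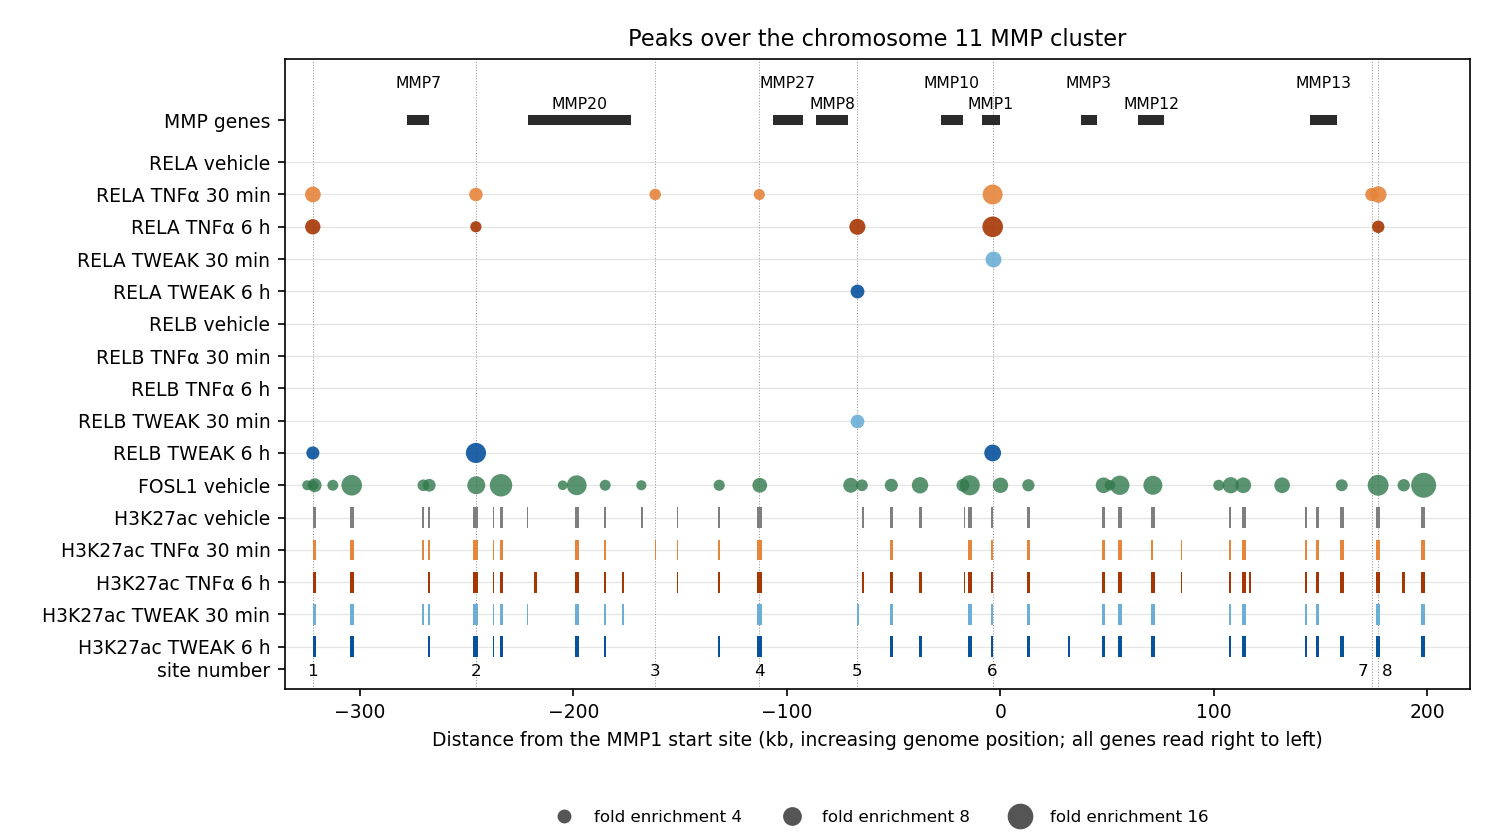
Peaks over the MMP cluster, with the distance from the MMP1 start site in kb on the x axis and 1 row per peak list. Circles are RELA, RELB and FOSL1 summits with an area that grows with fold enrichment, bars are merged H3K27ac regions in which the list had a peak, dotted lines mark the 8 RELA/RELB sites, and the rows for vehicle RELA, vehicle RELB and RELB after TNFα are empty while the FOSL1 row holds 35 peaks.

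Of the 8 sites, 5 (1, 2, 5, 6 and 8) were called in 2 or more lists, beside 47.9% of all sites. Without site 5, the tandem repeat, sites 1, 2, 6 and 8 of the 7 remain, beside 35.4% outside tandem repeats. The other 3 were called in RELA after 30 min of TNFα alone. That was the longest RELA or RELB list and called 69.7% of all sites (88.7% outside tandem repeats). The share of all sites called in that list alone is not given here. RELA and RELB were both called at 4 sites, sites 1, 2, 5 and 6, against 33.6% of all sites. Without site 5, sites 1, 2 and 6 of the 7 remain, against 16.3% outside tandem repeats. Only site 6 lay inside an MMP gene, 4 sites (2 to 5) lay between MMP genes, and 3 lay in the flanks of the cluster, site 1 past the 3′ end of MMP7 and sites 7 and 8 upstream of MMP13. None covered a start site of the cluster. Fold enrichment below is the authors' ratio of ChIP to input at the summit of a peak, and the rank is by this value within the list.

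The site with the highest RELA enrichment, and the one called in the largest number of lists, was site 6 in intron 6 of MMP1 (interstitial collagenase), 3552 bp downstream of its start site. It spanned chr11:102794388-102794717, where the transcribed pseudogene WTAPP1 also lies. RELA reached a fold enrichment of 11.4 after 30 min of TNFα, rank 1242 of 11266 peaks, and 12.2 after 6 h, rank 523 of 7294. RELA after 30 min of TWEAK had a fold enrichment of 7.25, rank 907 of 2791, and had no peak there after 6 h of TWEAK. RELB was called only after 6 h of TWEAK, at 8.14, rank 994 of 4052. The 4 values were all above the median of their lists, which lay between 5.74 and 6.21. The 4 summits lay within 57 bp of each other, and the κB match GGGACTTTCC at chr11:102794587-102794596 lay 16.5 bp from the summit of the strongest peak. Neither vehicle list and neither RELB list after TNFα had a peak at this site.

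Site 2 at chr11:102552445-102552782 lay 21843 bp upstream of MMP7 (matrilysin) and was the strongest RELB peak of the window. RELB after 6 h of TWEAK had a fold enrichment of 11.7, rank 326 of 4052, within the top 8.05% of the list. RELA was called there only after TNFα, with 5.26 at 30 min (rank 7236 of 11266) and 3.64 at 6 h (rank 6873 of 7294), both below the medians of their lists, 5.93 and 5.74. At this site the RELB value after TWEAK was thus high in its list and both RELA values after TNFα low in theirs, whereas at site 6 both RELA values after TNFα ranked higher in their lists than the RELB value did in its own. The 3 summits lay within 31 bp. No full κB consensus was found in the 200 bp around the summit, and the closest stretch, GGGAGGTCCA, missed 1 of the 10 letters and lay 29.5 bp from the summit.

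Site 1 at chr11:102476094-102476329 lay on the other side of MMP7, 54527 bp downstream of its start site, inside the long noncoding RNA gene ENSG00000255482. The nearest coding start was not an MMP but TMEM123, 23455 bp away. RELA had a fold enrichment of 7.11 after 30 min and 6.77 after 6 h of TNFα, and RELB had 4.93 after 6 h of TWEAK. Both RELA values were above and the RELB value was below the median of its list (5.93, 5.74 and 6.12). The κB match GGGGTTTTCC lay at chr11:102476185-102476194, 30.5 bp from the strongest summit.

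Sites 7 and 8 lay upstream of MMP13 (collagenase 3), 16463 and 19469 bp from its start. At site 8, chr11:102975105-102975325, RELA had 7.81 after 30 min and 4.47 after 6 h of TNFα, the first above and the second below the median of its list. At site 7, chr11:102972090-102972232, RELA was called only after 30 min, at 5.08. Sites 3 and 4 were likewise called only in RELA after 30 min of TNFα and were weak. Site 3, chr11:102636493-102636645, 11217 bp upstream of the MMP20 start, had 3.82 (rank 10658 of 11266). Site 4, chr11:102685213-102685434, 20461 bp downstream of the MMP27 start, had 3.57 (rank 10916). The 3 sites called in 1 list were thus below the list's median of 5.93.

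Site 5, 6286 bp upstream of MMP8 (neutrophil collagenase), was called in RELA after 6 h of TNFα at 7.41, in RELA after 6 h of TWEAK at 5.50 and in RELB after 30 min of TWEAK at 5.36. It was the only peak of the window in the latter 2 lists. Its sequence repeated itself, with 0.577 of the bases matching at the best shift, and its 3 summits were spread over 92 bp, the widest of the 8 sites. It held no κB, AP-1, TEAD or ETS motif. Where reads match several copies of a repeat their placement is uncertain, and how such reads were treated was not stated in the sources used here.

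**Figure D2:**
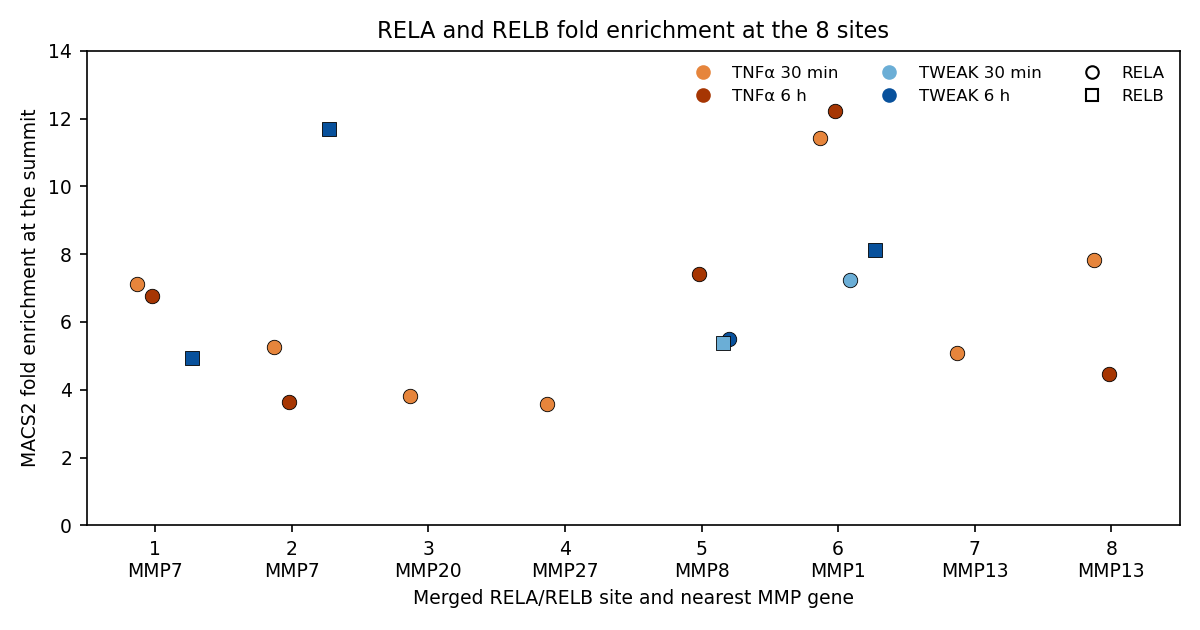
Fold enrichment over input at the summit (y axis) for each of the 8 RELA/RELB sites, labelled with the nearest MMP gene (x axis). Circles are RELA and squares RELB, coloured by treatment, 1 pooled list each, and site 6 in MMP1 holds the highest RELA values (11.4 and 12.2) while site 2 near MMP7 holds the highest RELB value (11.7).

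The full κB consensus was present within 100 bp of the summit at 2 of 8 sites, beside 28.7% of all sites. Neither was the tandem repeat, so it was at 2 of the 7 other sites, beside 47.5% outside tandem repeats. With 1 letter off allowed, 7 of 8 sites had a stretch, beside 55.9% and 85.3%, so that only the repeat at site 5 had none. The AP-1 motif TGANTCA was present at sites 4 and 8, beside 12.4% and 20.5%. The motifs were searched on both strands. The TEAD sequence GGAATG was at 0 of 8 sites (18.6% of all sites) and the ETS core at 3 of 8 (59.1%), and at site 1 the ETS match shared bases with the κB match.

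FOSL1 peaks outnumbered the 8 RELA and RELB sites in the window, as they did over the standard chromosomes (58864 peaks and 16096 sites). The vehicle list held 35 FOSL1 peaks in the window, 65.4 per Mb against 19.1 over the standard chromosomes, with fold enrichments from 2.69 to 18.0 and a median of 5.59, beside 4.99 for the whole list. By nearest start among the 9 MMP genes only, 9 peaks fell to MMP7, 5 to MMP13 and 4 each to MMP20 and MMP12. MMP8, MMP10 and MMP3 had 3 each, and MMP27 and MMP1 had 2 each. Some of the peaks past the 3′ end of MMP7 lay nearer to the start of TMEM123, which was not counted. The AP-1 motif lay within 100 bp of the summit in 20 of the 35 (44.4% of all FOSL1 peaks), and the median fold was 7.20 with it and 4.08 without it. A vehicle H3K27ac peak lay within 500 bp of the summit in 26 of 35 (67.3% of all). All 8 peaks with a fold of at least 10 had both, where the list's shares at that fold were 85.1% for the motif and 87.8% for H3K27ac.

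The strongest FOSL1 peak, with a fold of 18.0 and rank 490 of 58864, had its summit 40709 bp upstream of MMP13. The next were 14.5 at 33576 bp upstream of MMP7, 12.6 at 19394 bp upstream of MMP13, 12.2 at 36344 bp downstream of the MMP7 start and 11.6 at 3249 bp upstream of MMP10 (stromelysin 2). Of these 5, only the peak of 12.6 overlapped a RELA or RELB site, site 8. In all, 3 of the 35 FOSL1 peaks overlapped such a site (14.9% of all FOSL1 peaks), and 3 of the 8 sites overlapped FOSL1 (54.7% of all sites). None of these was the tandem repeat, so they were 3 of the 7 other sites, beside 48.5% outside tandem repeats. At site 8 the FOSL1 summit lay 75 bp from the RELA summit. At site 2 the FOSL1 fold was 9.28 with the summit 147 bp away, and at site 4 it was 6.27 with the summit 210 bp away. The FOSL1 peaks at sites 2 and 4 had no AP-1 motif within 100 bp of their own summits.

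The sites with a full κB match were not among the 3. At site 6 in MMP1 the nearest FOSL1 peak, at the MMP1 promoter, lay 3407 bp away. At site 1 a weak FOSL1 peak with a fold of 2.76 began 50 bp past the end of the site. Sites 3, 5 and 7 were 6335, 1969 and 2668 bp from the nearest FOSL1 peak.

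**Figure D3:**
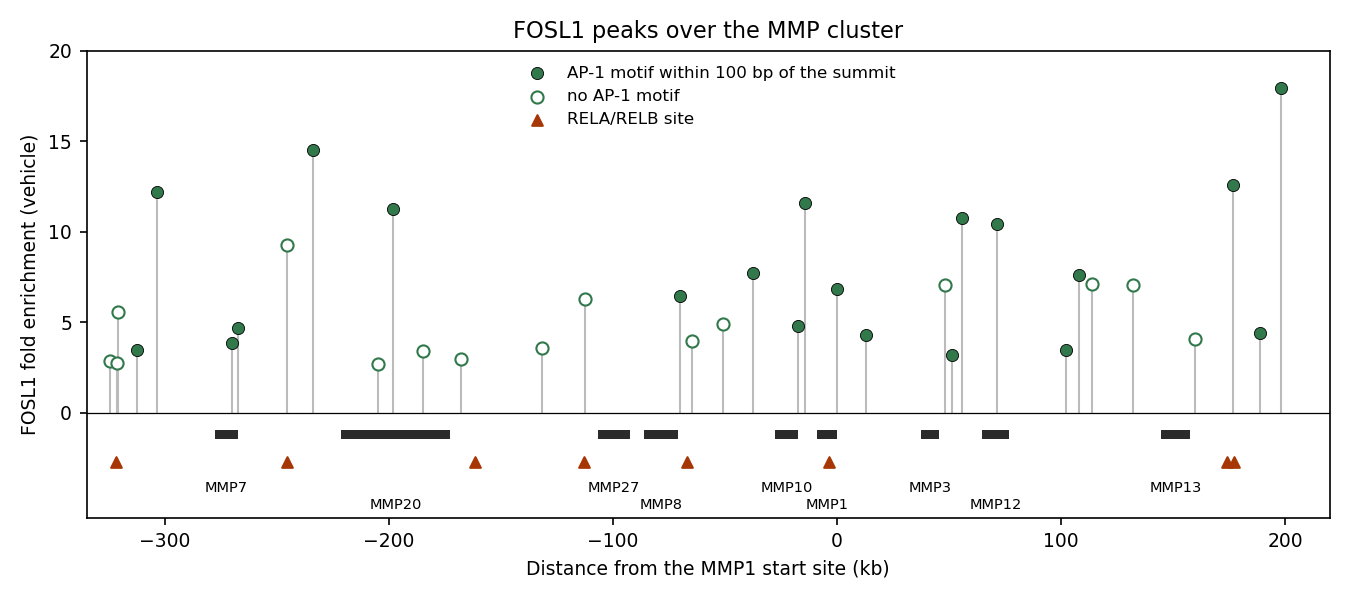
FOSL1 fold enrichment in vehicle (y axis) at the 35 peaks of the window by distance from the MMP1 start site in kb (x axis). Filled circles have an AP-1 motif within 100 bp of the summit and open ones do not, black bars are the 9 genes and triangles the 8 RELA/RELB sites, and the 8 circles at or above 10 are all filled.

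FOSL1 peaks lay within 1 kb of 3 of the 9 start sites, those of MMP7, MMP10 and MMP1, with folds of 4.67, 4.82 and 6.81 and summits 13, 50 and 98 bp from the start. This compares with 43.5% of all protein-coding genes. The peak at the MMP1 start held both the AP-1 motif and the full κB consensus within 100 bp of its summit. It was the only 1 of the 35 FOSL1 peaks with the κB consensus, and the share over all FOSL1 peaks is not given here. RefSeq promoter sequences (GRCh38.p14) were matched for 5 of the 9 genes, MMP7, MMP20, MMP27, MMP8 and MMP10, but not for MMP1, MMP3, MMP12 and MMP13. In the 250 bases before the start, 3 of the 5 had TGANTCA (7.76% of 27305 promoters of the same length, with the 50 bases after the start included) and 0 of 5 the κB consensus (10.8%). The motif stood 67 to 61 bases upstream of the start in both MMP7 and MMP10, and 112 to 106 bases upstream in MMP20, whose start had no FOSL1 peak nearer than 4656 bp. The 150 bases before these starts are shown on the strand of the gene, with TGANTCA in capitals, because MMP7 and MMP10 have the motif at the same place under a FOSL1 peak and MMP20 has it without one.
MMP7, chr11:102530748-102530897, minus strand: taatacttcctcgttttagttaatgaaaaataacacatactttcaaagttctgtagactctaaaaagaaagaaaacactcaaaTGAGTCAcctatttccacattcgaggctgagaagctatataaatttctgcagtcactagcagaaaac
MMP10, chr11:102780629-102780778, minus strand: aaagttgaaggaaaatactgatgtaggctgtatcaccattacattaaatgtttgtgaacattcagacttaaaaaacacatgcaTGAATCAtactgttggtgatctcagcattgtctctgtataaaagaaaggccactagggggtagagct
MMP20, chr11:102625333-102625482, minus strand: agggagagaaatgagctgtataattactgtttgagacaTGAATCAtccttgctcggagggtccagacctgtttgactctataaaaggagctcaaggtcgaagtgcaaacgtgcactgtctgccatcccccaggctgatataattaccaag

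H3K27ac peaks covered 6.03% of the window in vehicle, against 1.80% of the standard chromosomes in the same list. The 33 vehicle peaks summed to 32.3 kb. After 30 min of TNFα there were 28 peaks over 25.6 kb (4.78% against 1.46%), and after 6 h 36 peaks over 38.9 kb (7.26% against 1.80%). After 30 min of TWEAK there were 28 peaks over 24.1 kb (4.50% against 1.52%), and after 6 h 29 peaks over 29.2 kb (5.45% against 1.50%). Relative to vehicle, the covered length was 0.793 and 0.747 at 30 min of TNFα and TWEAK, and 1.20 and 0.904 at 6 h. Over the whole lists the same ratios were 0.813, 0.845, 1.00 and 0.837, so that coverage of the window stood furthest above the list's own ratio after 6 h of TNFα. The mean fold enrichment of the peaks was between 3.13 and 3.38 in the 5 lists and the median between 2.84 and 3.27.

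**Figure D4:**
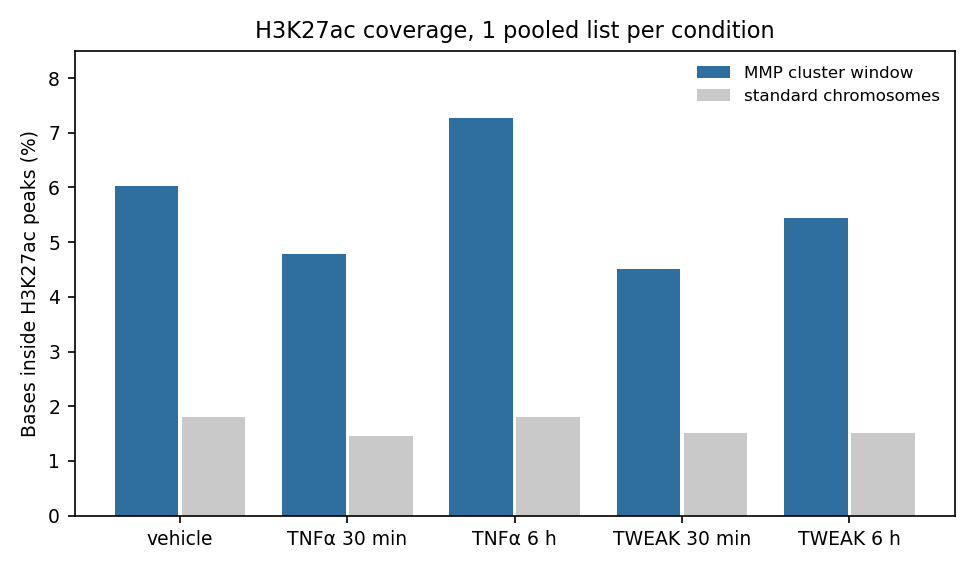
Percentage of bases inside H3K27ac peaks (y axis) in the MMP window and on the standard chromosomes for the 5 conditions (x axis), 1 pooled list each without error bars. Coverage of the window ran from 4.50% to 7.26% and that of the standard chromosomes from 1.46% to 1.80%.

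Of the 33 vehicle peaks, 7 had no overlapping peak after 30 min of TNFα (27.8% of all vehicle peaks), 3 after 6 h of TNFα (15.6%), 7 after 30 min of TWEAK (24.6%) and 7 after 6 h of TWEAK (20.2%). In the other direction, 3 of 28, 6 of 36, 2 of 28 and 3 of 29 treated peaks had no overlap in vehicle (18.5%, 16.7%, 17.6% and 12.2% over the lists). The peaks of the 5 lists merged into 41 regions. Of these, 22 were called in all 5 lists (44.2% of all merged regions), 11 in 2 to 4 lists and 8 in 1 list, 4 of which were called after 6 h of TNFα. FOSL1 overlapped 24 of the 41 regions (45.5% of all), and 18 of the 22 called in every condition (72% of all such regions). The most enriched region in each list was the same, a region of 1065 bp that overlapped the WTAPP1 pseudogene, 22306 bp upstream of MMP8, with folds of 7.71 in vehicle, 6.27 and 7.24 at 30 min and 6 h of TNFα, and 5.50 and 6.41 at 30 min and 6 h of TWEAK. No other region passed a fold of 5 in any list.

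**Figure D5:**
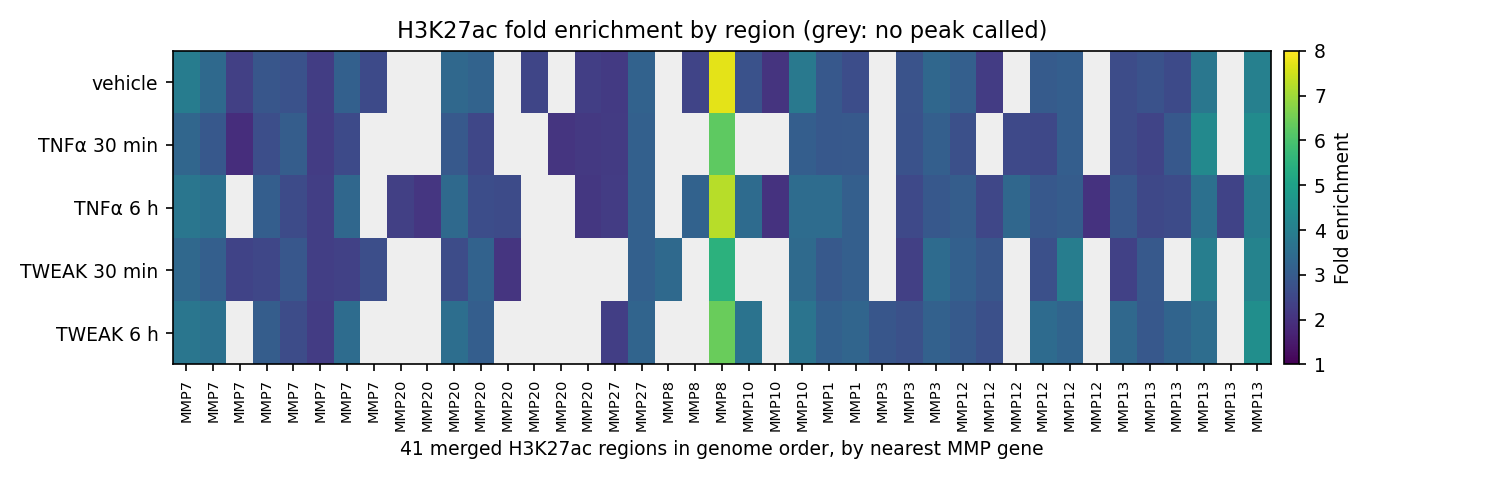
H3K27ac fold enrichment (colour) of the 41 merged regions of the window in genome order (x axis, labelled with the nearest MMP gene) in the 5 conditions (y axis), with grey where no peak was called. A column without grey is one of the 22 regions called in every condition, and the brightest column is the region at WTAPP1, from 5.50 to 7.71.

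The longest H3K27ac peak was 2054 bp in vehicle, with the middle of its region 37303 bp upstream of MMP12. It was 2030 bp after 30 min of TNFα at site 4, and at site 2 it was 2325 bp after 6 h of TNFα, 1932 bp after 30 min and 2269 bp after 6 h of TWEAK. The region at site 8 was among the 3 longest in all 5 lists, at 1904 bp in vehicle, 1777 and 2024 bp after TNFα and 1627 and 1956 bp after TWEAK. The remaining place among the 3 longest was held by the region in MMP20 in vehicle (1997 bp) and after 6 h of TNFα (2078 bp), by site 2 after 30 min of TNFα (2001 bp) and by site 4 after 30 min and 6 h of TWEAK (1911 and 1869 bp).

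Of the 8 RELA/RELB sites, 5 had a vehicle H3K27ac peak within 500 bp of the summit (48.9% of all sites, 61.9% outside tandem repeats), and these 5, sites 1, 2, 4, 6 and 8, had one in all 5 lists (40.7% and 56.2%). By list, 6 of 8 sites had one after 30 min and 5 after 6 h of TNFα (58.7% and 54.9% of all sites), and 6 after 30 min and 5 after 6 h of TWEAK (53.4% and 49.2%). With a stricter q limit for the H3K27ac peaks, only 4 sites had one after 30 min of TNFα. Sites 1, 2, 4, 6 and 8 thus did not all keep a peak in that list. The other 4 lists each had 5 sites at that limit. Sites 2, 4 and 8, which overlapped FOSL1, lay inside the H3K27ac peak in every condition. Their folds ranged from 2.59 to 3.07 at site 2, from 3.15 to 3.27 at site 4 and from 3.51 to 4.30 at site 8, where the highest value was after 30 min of TNFα. Sites 1 and 6, with the κB match and no FOSL1 overlap, lay at the edge of the H3K27ac peak. The summit of site 1 was 21 to 62 bp outside it in 4 lists and inside it after 6 h of TNFα. The summit of site 6 was inside it in vehicle and after 6 h of TNFα, and 33 to 134 bp beyond it in the other 3 lists. At site 6 the H3K27ac fold was 2.93 in vehicle, 2.93 and 3.48 at 30 min and 6 h of TNFα and 2.95 and 3.14 at 30 min and 6 h of TWEAK.

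The other 3 sites lacked H3K27ac in vehicle. Site 3 had a peak of 222 bp with a fold of 2.07 after 30 min of TNFα, the condition in which RELA was called there, and none within 5 kb in the other lists. Site 5 had a peak of 215 bp with a fold of 3.38 after 30 min of TWEAK alone, over the same repeat. Site 7 had none within 500 bp in any list, the nearest being the region of site 8 at 1910 to 2102 bp.

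By gene, a RELA or RELB peak lay within 10 kb of the start site of 2 of the 9 members, MMP1 and MMP8, beside 17.4% of protein-coding genes, and the MMP8 peak was the tandem repeat. For RELB after 6 h of TWEAK the count was 1 of 9, MMP1, beside 2.9%. FOSL1 lay within 10 kb of 8 of 9 start sites (62.4% of genes), all but MMP27. H3K27ac lay within 10 kb of 8 in vehicle (72.8%), 6 after 30 min and 8 after 6 h of TNFα (71% and 72.6%), and 8 after 30 min and 6 after 6 h of TWEAK (71.5% and 72.3%), again never of MMP27, whose nearest peak lay 19338 to 19486 bp away. After 30 min of TWEAK, MMP8 was counted only through the 215 bp peak over the tandem repeat, site 5.

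At the start sites themselves H3K27ac was sparse. Within 1 kb it was called in vehicle at 2 of 9 members, MMP7 and MMP10, beside 62.2% of genes. MMP7 had a peak over its start in all 5 lists, with folds of 2.88 in vehicle, 2.67 and 3.09 at 30 min and 6 h of TNFα, and 2.48 and 3.06 at 30 min and 6 h of TWEAK. MMP10 had a short peak 386 bp upstream in vehicle (fold 2.05) and 321 bp upstream after 6 h of TNFα (2.03), and in the other 3 lists the nearest peak was 2490 to 2685 bp upstream. The peak nearest to MMP1 was that of site 6, 3512 to 3686 bp downstream of the start. MMP3 (stromelysin 1) had its nearest peak 2084 to 2759 bp upstream with folds of 2.33 to 2.78 in all 5 lists. That of MMP13 lay 1673 to 2657 bp upstream in 4 lists and was not called after 30 min of TWEAK, where the nearest was 8585 bp downstream. MMP12 had its nearest peak 4830 to 5681 bp downstream. MMP20 had none within 10 kb after 30 min of TNFα and 6 h of TWEAK, and MMP8 had none in the same 2 lists.

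Outside the cluster, 2 of 14 other MMP genes had a RELA or RELB peak within 10 kb of the start, beside 17.4% of all protein-coding genes. Both were RELA after 30 min of TNFα, 517 bp from the start of MMP9 (gelatinase B) at a fold of 6.81 and 6514 bp from that of MMP25 at 3.85. Of 6 MMP inhibitor genes 1 had one, beside the same 17.4%. It was TIMP1, which binds and blocks secreted MMPs, 27 bp from its start at 7.31, also in RELA after 30 min of TNFα. On either side of the window, 4 of 6 neighbouring genes had one, again beside 17.4%. BIRC3 and BIRC2, which encode the cIAP proteins that bind TRAF2, had RELA in all 5 lists, vehicle included, with folds at BIRC3 of 10.6 in vehicle, 13.5 and 13.0 after TNFα and 15.1 and 10.8 after TWEAK. RELB was at BIRC3 with 6.97 in vehicle, 6.55 and 8.90 at 30 min and 6 h of TNFα and 16.5 after 6 h of TWEAK, and at BIRC2 with 4.06 in vehicle, 5.56 after 6 h of TNFα and 12.6 after 6 h of TWEAK. Both genes thus had RELB peaks in vehicle and after TNFα, where the MMP window had 0. Outside tandem repeats only 6.05% of all sites were called in either vehicle list, so a site without a vehicle peak was the common case. The matching share for RELB after TNFα is not given here. YAP1 had RELA after TNFα, at 4.48 and 3.94, and TMEM123 after 30 min of TNFα only, at 4.31. DCUN1D5 and DYNC2H1, past MMP13, had none.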

How the data were processed

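ChIP-seq peak lists of L3.6pl cells were used, 16 lists from 48 samples (3 replicates per condition, merged by the authors before calling), and samples were assigned to conditions by their labels. Per the labels and the study's methods, the authors aligned their reads (Bowtie2 2.5.0, build hg38), used SAMtools 1.18 and deepTools 3.3.2 and called peaks with MACS2 (version not given in the sources used here) against input, narrow for RELA, RELB and FOSL1 and broad for H3K27ac. The deposited fold enrichment is a ratio of ChIP over input at the summit, or averaged over the peak for H3K27ac. The deposited −log10 q is the significance of a peak, averaged over the peak for H3K27ac, and was used only as a filter. The methods name a cutoff of 0.05. The lowest −log10 q was 1.31 in the narrow lists, with 0 peaks above that q, and 1.01 in the H3K27ac lists, where 618 to 1934 peaks per list had an averaged q above 0.05. A called peak depends on depth, which is unknown here, so the absence of a peak does not show the absence of binding.

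Only the standard chromosomes (autosomes, X and Y) entered the counts, and 0 peaks lay past a chromosome end. RELA and RELB peaks that overlapped by at least 1 bp were merged into sites, with the summit of the highest fold. A site counted as acetylated with an H3K27ac peak up to 500 bp from its summit. Motifs were searched in the 200 bp around it, and genes (GENCODE 44) were taken within 10 kb of the canonical start. Promoters came from the RefSeq table. The sequence of site 5 is not reported here. Python 3.11.15, numpy 2.4.6 and pandas 2.3.3 were used, and the code was tested on simulated data. All 9 genes and all 8 sites are named. Values by list were set to be given for sites called in 2 or more lists and for the 5 highest RELA values at 30 min of TNFα, and since every site is accounted for, those of the remaining sites 3 and 4 are given too. Of FOSL1 the 5 highest peaks and those at sites are named, and of H3K27ac the peak nearest each start and the 3 longest of each list. The members and gene lists were chosen with earlier results of these data known. With 1 list per condition no test was made. Percentages beside a count are the share over all sites, peaks or genes of the same kind. Alternatives varied the q and fold limits, the flanks, overlap, distances and motif window.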

Additional observations from a re-analysis of the deposited data

How the results depend on the processing

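The number of RELA and RELB peaks in the window, 18, fell to 8 when only the 2000 strongest peaks of each list were kept, with RELA falling from 7 to 1 at 30 min and from 5 to 2 at 6 h of TNFα. The 3 sites on FOSL1 and the 2 sites with a κB match kept within 1.5 times their counts under the other planned settings. With a motif window of 100 bp around the summit in place of 200 bp, an AP-1 motif was at 1 site in place of 2. A stricter q limit for the H3K27ac peaks left 4 sites with one in place of 6 after 30 min of TNFα. After 30 min of TWEAK it left 5 in place of 6, and the counts of the remaining lists did not change. With 1 letter off allowed, a setting chosen after seeing the data, 7 sites had a κB stretch. The members with a RELA or RELB peak near the start numbered 1 within 5 kb and 8 within 50 kb, in place of 2 within 10 kb. Of 50 alternative values for the main counts and coverages, 45 stayed within 1.5 times the value reported. Leaving out each replicate in turn was not run, since the lists were called on merged replicates. No paired analysis was possible because each condition has 1 list and the replicates are not separate in it. Outside tandem repeats, RELA after 6 h of TWEAK and RELB after 30 min of TWEAK had 0 peaks in the window. The depth of the lists is unknown, and its part in which peaks were called was not tested.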
